A study of Mus musculus with 7 samples.

Results

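Among the H3K18La peaks of the mouse retina that were already well read at postnatal day 4, those that stood lower at postnatal day 28 are described here. A peak was counted as well read when its mean over the P4 libraries of RPKM (reads per kilobase of peak, scaled to library size) times its width in kilobases was at least 5.2, which is about 20 P4 reads. A well-read peak was a member when its mean RPKM over the P28 libraries lay below its mean over the P4 libraries. Of 108253 peaks, 4121 were well read at P4, and 1016 of these (24.65%) were members. The other 3105 well-read P4 peaks serve for comparison. The members were thus chosen by their P4 and P28 values, so their difference between these ages is a description with no test, whereas the P10 values played no part in the choice.

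The libraries were CUT&Tag profiles of whole retinas from C57Bl/6J mice, 2 at P4, 2 at P10 and 3 at P28, with 500000 dissociated cells in each assay. The replicates are described as biological, but the labels do not tie them to single animals. P28 replicate 1 was the only library of the second batch, so batch cannot be told apart from that library. In whole retina, fewer cells that carry a mark and less of the mark in each cell cannot be told apart.

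H3K18La is histone H3 with a lactyl group on lysine 18, a modification that is derived from lactate and is known to lie at active promoters and enhancers. CUT&Tag directs a tethered enzyme to the mark, so that fragments are recovered where the mark is. Between P4 and P28 the mouse retina completes the birth of its last neurons, and the photoreceptors, bipolar cells and Mueller glia mature, while the ganglion, amacrine and horizontal cells are already in place at P4.

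The central 250 bases of 6 members are shown here, because the members differed from the other well-read peaks in their share of promoters and of CpG-rich sequence. The first 3 are the promoters of Pou3f2, a POU-domain transcription factor of neurons, of Gad2, which makes the transmitter GABA in amacrine and horizontal cells, and of Tmem229a, a transmembrane protein. The other 3 lie in introns of Grm3, a metabotropic glutamate receptor that was lower at P10 and P28, and of Fgfr2, a fibroblast growth factor receptor, and Tenm4, a teneurin adhesion protein, whose peaks were highest at P10. All were read on the plus strand of GRCm38 from the RefSeq assembly, and capitals mark the CpG dinucleotides.
Pou3f2 promoter, chr4:22489154-22489403: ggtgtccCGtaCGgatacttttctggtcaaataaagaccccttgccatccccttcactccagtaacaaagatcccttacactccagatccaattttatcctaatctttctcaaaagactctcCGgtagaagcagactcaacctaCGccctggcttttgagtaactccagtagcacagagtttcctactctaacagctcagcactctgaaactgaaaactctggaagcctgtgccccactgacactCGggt
Gad2 promoter, chr2:22622622-22622871: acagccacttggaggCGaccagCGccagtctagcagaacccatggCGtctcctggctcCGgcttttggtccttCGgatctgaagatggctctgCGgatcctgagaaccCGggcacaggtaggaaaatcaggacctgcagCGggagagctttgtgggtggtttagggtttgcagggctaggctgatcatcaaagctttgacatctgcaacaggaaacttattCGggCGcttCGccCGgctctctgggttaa
Tmem229a promoter, chr6:24955677-24955926: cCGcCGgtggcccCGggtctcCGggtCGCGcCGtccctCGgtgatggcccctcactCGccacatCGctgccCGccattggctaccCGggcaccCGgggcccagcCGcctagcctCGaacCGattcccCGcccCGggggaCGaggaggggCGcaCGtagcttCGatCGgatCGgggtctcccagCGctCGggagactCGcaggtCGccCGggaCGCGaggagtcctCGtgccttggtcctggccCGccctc
Grm3 intron, chr5:9622925-9623174: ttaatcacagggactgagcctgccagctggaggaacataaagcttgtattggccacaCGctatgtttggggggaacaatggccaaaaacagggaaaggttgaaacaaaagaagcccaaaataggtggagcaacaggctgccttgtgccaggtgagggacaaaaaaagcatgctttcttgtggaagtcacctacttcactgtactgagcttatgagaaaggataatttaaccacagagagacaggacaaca
Fgfr2 intron, chr7:132720606-132720855: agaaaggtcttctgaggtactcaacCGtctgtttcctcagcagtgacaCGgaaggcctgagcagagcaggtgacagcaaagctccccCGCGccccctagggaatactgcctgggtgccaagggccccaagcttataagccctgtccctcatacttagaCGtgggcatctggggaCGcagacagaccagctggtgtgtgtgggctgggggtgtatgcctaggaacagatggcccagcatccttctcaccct
Tenm4 intron, chr7:96655094-96655343: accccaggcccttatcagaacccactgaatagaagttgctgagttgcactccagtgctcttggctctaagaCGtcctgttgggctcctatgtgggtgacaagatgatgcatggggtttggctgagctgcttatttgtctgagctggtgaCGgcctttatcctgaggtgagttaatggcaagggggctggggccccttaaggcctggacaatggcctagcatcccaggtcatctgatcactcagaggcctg

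The 3 promoter stretches held 5, 12 and 33 CpG dinucleotides, and the 3 intron stretches held 1, 6 and 2. The whole Pou3f2 peak was denser in CpG than its centre, with 55.4 CpG per kilobase, beside 57.8 in the Gad2 peak and 78.1 in the Tmem229a peak. The Grm3, Fgfr2 and Tenm4 peaks had 7.09, 12.9 and 9.0 CpG per kilobase.

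Depth and scaling set the frame for every value below. Reads in peaks ranged from 199970 in P10 replicate 1 to 8274373 in P28 replicate 2, and the P4 libraries held 358971 and 295383. At the median member width of 1529 bases, 1 read was worth 0.297 and 0.390 RPKM in the P4 libraries, 1.18 and 0.516 RPKM in the P10 libraries, and 0.172, 0.0402 and 0.113 RPKM in the P28 libraries. A count of 0 in P10 replicate 1 therefore allowed a level of up to 3 reads, or 3.54 RPKM, in a member of that width, counting error only. The peaks together took 16.3% and 17.6% of the normalised library size at P4, 36.1% and 52.1% at P10, and 42.4%, 50.9% and 57.1% at P28. The deposited RPKM uses that size as its reference. When libraries were instead scaled to their reads in peaks, 2487 well-read peaks met the rule, and 1015 of the 1016 members were among them. Among the peaks that marked the tissue as retina, none of the 12 well-read peaks of photoreceptor genes was a member, and the promoter of Sag, the rod arrestin, had a mean of 7.64 RPKM at P4 and 49.7 at P28.

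In RPKM the members began slightly above the other well-read peaks and ended far below them, an order that the rule favours. Median P4 reads were close, at 26 in members and 27 in the other well-read peaks, but the members were narrower (median 1529 bases against 1895). The median level of the members was 4.70 RPKM in both P4 libraries, 2.63 and 4.55 in the P10 libraries, and 1.97, 2.73 and 3.04 in the P28 libraries. P28 replicate 1 was thus the lowest, and the deeper P10 library stood close to P4 while the shallower lay near P28. In the other well-read peaks the medians were 3.78 and 4.05 at P4, 10.7 and 15.3 at P10, and 10.9, 12.9 and 14.7 at P28. The members took 0.785% of the normalised library size in each P4 library, 0.685% and 1.10% in the P10 libraries, and 0.356%, 0.483% and 0.529% in the P28 libraries. The P10 libraries thus lay on either side of P4 in this share. Of the reads in peaks, a total that itself was larger at the later ages, the members took 4.63% ± 0.255 (SD, n = 2) at P4, 2.00% ± 0.154 (SD, n = 2) at P10 and 0.906% ± 0.0577 (SD, n = 3) at P28.

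**Figure D1:**
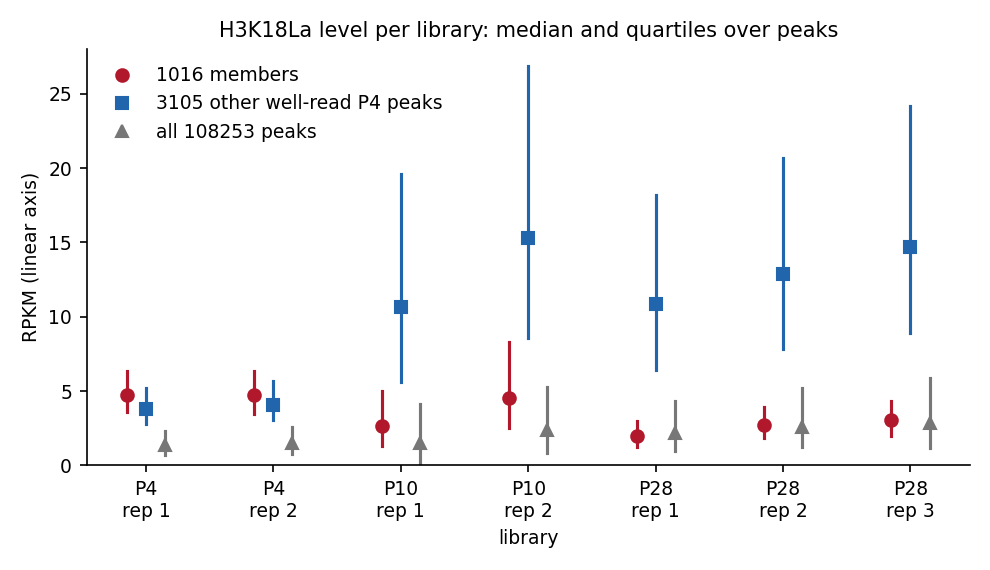
RPKM (linear axis) in each of the 7 libraries, as the median (symbol) and the quartiles (line) over the 1016 members, the 3105 other well-read P4 peaks and all 108253 peaks. The members sit at 4.70 in both P4 libraries and between 1.97 and 3.04 at P28, while the other well-read peaks sit between 10.9 and 14.7 at P28.

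The size of the difference between P4 and P28 varied widely among the members. The median member was 1.73-fold higher at P4. In 421 members (41.4%) the P28 mean was under 0.5 of the P4 mean, in 107 (10.5%) it was under 0.25, and in 235 (23.1%) it was 0.8 or more. Every P28 library lay below both P4 libraries in 642 members (63.2%), beside 20.7% of all peaks, and nothing is read from this since the same values chose the members. The median difference in mean log2(RPKM + 1) was -0.62 over the members, 1.44 over the other well-read peaks and 0.68 over all peaks. It depended on the scaling, at -1.55 for members and -0.23 for all peaks when libraries were scaled to reads in peaks, and -1.14 and 0.16 when log2 values were median centred. In the limma fit over all peaks, 50 members (4.92%) were called lower at P28 at an adjusted p under 0.01, beside 4.21% of all peaks called lower. The rule used the same values and fixed the direction, so this count is a description and nothing is read from it. That count was 1 to 7 when a P4 or a P28 library was left out, beside 1.80% to 2.24% of all peaks, and 172 without P10 replicate 1 and 173 without P10 replicate 2, beside 6.89% and 7.02%. Scaled to reads in peaks it was 832 (81.9%, beside 18.4% of all peaks), and with median-centred log2 values it was 267 (26.3%, beside 9.91%).

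At the edge of the rule on reads, the 3 members just inside (Znrf4, Arhgap42 and Gm29927) had RPKM times kilobases of 5.21, 5.21 and 5.24, and the 3 peaks just outside (Nrxn3, Gm26913 and 4932435O22Rik) had 5.198 each after rounding. At the edge of the rule on level, the members just inside were Gm47711 (3.90 RPKM at P4 and 3.89 at P28), Slc10a7 (5.71 and 5.69) and Slc7a5 (4.31 and 4.28). The well-read peaks just outside were Gm7788 (5.07 at both ages after rounding), Atp9a (2.73 at both) and Pofut2 (3.29 at both).

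The rule was also applied with some libraries held out. When P4 replicate 1 with P28 replicates 2 and 3 chose peaks by the same rule, 1126 peaks were chosen. Their median level was 4.90 RPKM in the choosing P4 library, 3.58 RPKM in P4 replicate 2 and 1.84 RPKM in P28 replicate 1. In those held-out libraries 943 of them (83.7%) were again lower at P28, beside 9.10% of the well-read peaks that were not chosen. When P4 replicate 2 made the choice with the same P28 libraries, 78.3% of 1336 peaks were again lower. With P28 replicate 2 or 3 held out in place of replicate 1, the shares were 56.7% to 65.4%, beside 0.972% to 2.34% of the peaks not chosen. P28 replicate 1, the library of the second batch, thus gave the higher shares.

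In the deposited scaling the members lay less often in promoters and more often between genes than the other well-read peaks. Their promoter share was higher when libraries were scaled to reads in peaks, as given at the end. Distal intergenic peaks numbered 392 (38.6% of members, 20.1% of the other well-read peaks and 32.8% of all peaks). Introns held 300 (29.5%, 27.4% and 42%) and promoters 243 (23.9%, 44.4% and 15.8%). A further 61 members were exonic, 16 lay in 3' UTRs, 3 in 5' UTRs and 1 just downstream of a gene. Counted the other way, 15% of the well-read promoters were members, against 26.1% of the well-read introns and 38.5% of the well-read intergenic peaks. The members were narrower, with a median width of 1529 bases against 1895, and the part of width in these shares was not tested. In each band of width compared, from 1000 to 2500 bases, the members had the lower promoter share. Among peaks of 1500 to 2000 bases, 26.9% of the members and 48.3% of the other well-read peaks lay in promoters.

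**Figure D2:**
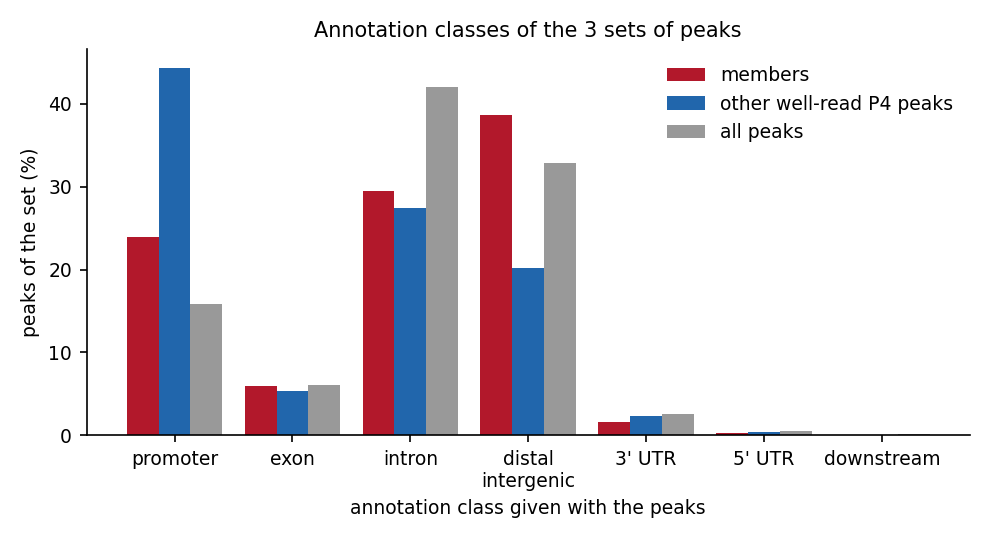
Share of peaks (%) in each annotation class for the members, the other well-read P4 peaks and all peaks, with members chosen in the deposited scaling. Promoters hold 23.9% of the members and 44.4% of the other well-read peaks, and distal intergenic regions 38.6% and 20.1%.

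The same contrast appeared in sequence. A peak was called CpG-rich when its GC content was at least 50% and its ratio of observed to expected CpG at least 0.6. There were 114 such members (11.2%), beside 27.7% of the other well-read peaks and 8.48% of all peaks. Within promoters the shares were 43.6% for members, 60.8% for the other well-read promoters and 49.0% for all promoter peaks. The median GC content of the members was 52.0%, beside 53.9% and 49.6%. Short motifs were searched on both strands of the central 300 bases. TAATCC, the core of the site that the photoreceptor factor CRX binds, occurred in 8.67% of the members outside promoters, 15.4% of the other well-read peaks outside promoters and 12.3% of all such peaks. GGGCGG, the GC box, occurred in 43.2% of promoter members, 55.3% of the other well-read promoters and 44.8% of all promoter peaks. CANNTG, the E-box, occurred in 81.7%, 74.0% and 81.4% of the peaks of any class, CACCC in 61.5%, 63.8% and 55.6%, and TAATTA in 4.63%, 3.70% and 5.10%. Matches of different motifs can overlap, and a match is a run of letters, not a bound site.

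At P10, the age that did not choose them, the members were split in the deposited scaling. The P10 mean lay below the P4 mean in 62.4% of them, beside 38.8% of all peaks and 6.47% of the other well-read peaks. It did so in 92.4% of the members when libraries were scaled to reads in peaks, which lowered all peaks at P10 as well. The share was 92.3% when each library was divided by its median over peaks read in all libraries. The share over all peaks was not computed in these scalings, so nothing is read from the rise. The counts that follow are in the deposited scaling, and each sets the P10 values against P4 or P28 values that the rule used, so a difference from the other sets of peaks is partly built in and is given as a description. The P10 mean was at or above the P4 mean in 382 members (37.6%), between the P28 and P4 means in 325 (32.0%) and below the P28 mean in 309 (30.4%). Both P10 libraries lay below both P4 libraries in 392 members (38.6%), beside 20.9% of all peaks and 1.55% of the other well-read peaks. Both lay above both P4 libraries in 197 members (19.4%), beside 36.1% of all peaks and 80.5% of the other well-read peaks. Both lay above every P28 library in 391 members (38.5%), beside 14.9% of all peaks and 27.7% of the other well-read peaks. A steady order, with both P10 libraries below both P4 libraries and above all P28 libraries, was found in 50 members (4.92%), beside 0.268% of all peaks, and its P4 and P28 parts were used by the rule. The shallow P10 replicate 1 held 0 reads at 151 members (14.9%), and its part in these counts was measured by leaving it out. The P10 mean lay below the P4 mean in 634 members (62.4%) with both P10 libraries, in 521 (51.3%) by P10 replicate 2 alone and in 737 (72.5%) by P10 replicate 1 alone. The median difference between P10 and P4 was -0.35 on the log2(RPKM + 1) scale, beside 0.23 over all peaks, and it was -0.01 without P10 replicate 1 and -0.58 without P10 replicate 2. Scaled to reads in peaks it was -1.24, beside -0.36 over all peaks, and with median-centred log2 values it was -0.60, beside -0.02.

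**Figure D3:**
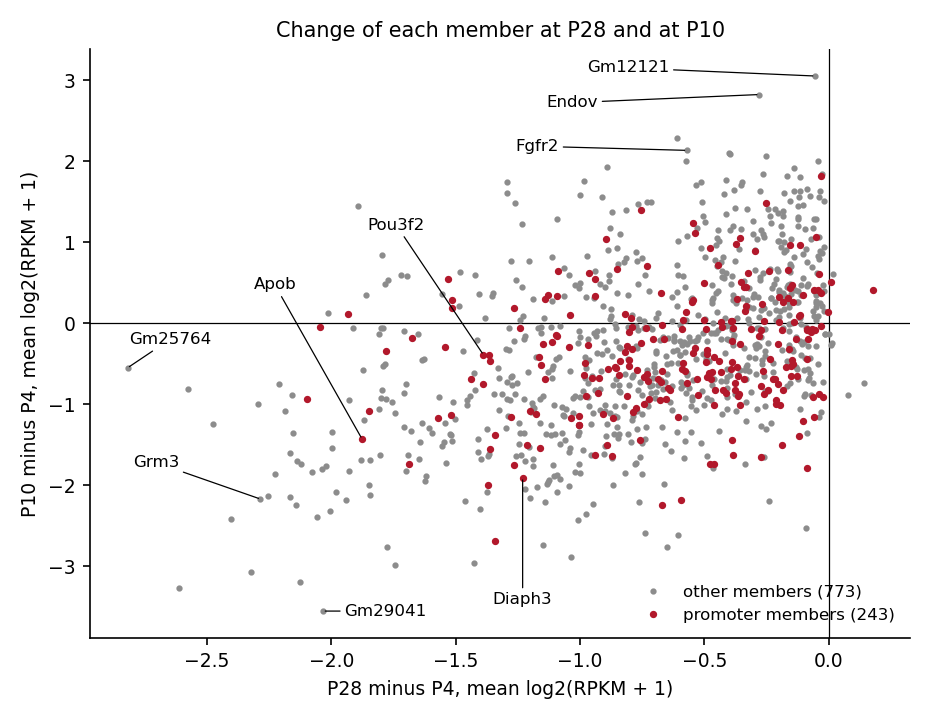
Difference of each of the 1016 members from P4 at P28 (horizontal axis) and at P10 (vertical axis), as mean log2(RPKM + 1). The horizontal position was used to choose the members, while the vertical positions run from -3.55 (Gm29041) to 3.05 (Gm12121), with the 243 promoter members mostly below 0.

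In the limma fit, 60 members were called different between P10 and P4 at an adjusted p under 0.01. Of these, 24 (2.36%) were lower at P10, beside 7.34% of all peaks, and 36 (3.54%) were higher, beside 11.4% of all peaks. The balance depended on the scaling, which moved all peaks as well. Scaled to reads in peaks, 421 members (41.4%) were lower and 2 (0.197%) higher, beside 17.2% and 4.4% of all peaks. With the log2 values of each library centred on their median, 79 (7.78%) were lower and 39 (3.84%) higher, beside 10.3% and 11.2% of all peaks. In the main limma fit of the deposited values both shares were below those of all peaks. The share called lower was instead above that of all peaks with voom on the recovered reads (3.35%, beside 0.0924%). It was also above with limma after a filter on low peaks (1.87%, beside 1.475%). The share called higher stayed below in both, at 5.51% beside 14.5% with voom and 2.76% beside 11.4% with the filter. The P4 libraries enter this contrast and also chose the members. Of the 24 lower members 15 were intergenic and 3 lay in promoters, those of Slc27a6, Diaph3 and Thsd7b, which were named after their values were seen. Of the 36 higher members 15 were intronic and 13 intergenic, and 1 lay in a promoter, that of Cplx2, a complexin of synaptic vesicle release, likewise named after its value was seen. The count of 60 (5.91%, beside 18.7% of all peaks) was 3 without either P4 library, 90 without P10 replicate 1, 166 without P10 replicate 2, and 36, 12 and 24 without P28 replicates 1, 2 and 3. The share of all peaks called in these fits ran from 5.05% to 19.4%. Leaving out a P4 or a P10 library left 1 library at that age, so nothing is read from the direction of the calls in those fits. Between P28 and P10 limma called 0 members at an adjusted p under 0.01, beside 0.00185% of all peaks. At an unadjusted p under 0.05, 266 members (26.2%) were lower at P28, beside 8.54% of all peaks, and 31 (3.05%) were higher, beside 24.0%. At an adjusted p under 0.01, voom on the recovered reads called 187 members, of which 184 (18.1%) were lower, beside 6.09% of all peaks, and 3 (0.295%) were higher, beside 2.17%. At an adjusted p under 0.05 limma called 158 members (15.6%) lower at P28, beside 3.25% of all peaks, and 9 (0.886%) higher, beside 10.1%. The P28 libraries had also chosen the members.

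Members higher and members lower in both P10 libraries had different make-ups of class and sequence, given here as shares with no test. Among the 197 with both P10 libraries above both P4 libraries, 16.2% lay in promoters, 7.11% were CpG-rich, and 13.2% held TAATCC in their central 300 bases. Among the 392 with both P10 libraries below both P4 libraries, 26.0% lay in promoters, 11.7% were CpG-rich and 6.12% held TAATCC. Over all peaks these shares were 15.8%, 8.48% and 11.5%, and over the other well-read peaks 44.4%, 27.7% and 11.3%. The split used P4 values that also chose the members. By class, the P10 mean lay below the P4 mean in 166 of 243 promoter members (68.3%), 242 of 392 intergenic members (61.7%), 183 of 300 intronic members (61.0%) and 30 of 61 exonic members (49.2%).

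Protein-coding promoters made up 142 members and belonged to 140 genes. Both P10 libraries lay below both P4 libraries in 62 of them, beside 20.9% of all peaks, and above in 13, beside 36.1% of all peaks. Every P28 library lay below both P4 libraries in 83, beside 20.7% of all peaks, from values that chose the members. The median level of these promoters was 4.34 RPKM at P4, 2.77 at P10 and 2.71 at P28, and the highest P4 level was 11.0. The 10 with the largest difference between P4 and P28 are given next, in an order that serves reading only. High P4 values helped to choose them and enter each P10 test below, so passing it is a description.

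Mdga2 encodes an adhesion protein that restrains neuroligins at synapses. Its promoter had 4.04 and 5.69 RPKM at P4, 0 and 2.00 at P10, and 0.333, 0.898 and 1.317 at P28. Syndig1, which associates with AMPA receptors, had 3.64 and 3.99 at P4, 0 and 1.05 at P10, and 0.701, 1.31 and 1.04 at P28. Stxbp6, or amisyn, binds the vesicle fusion machinery, and its promoter had 3.12 and 4.79 at P4, 1.03 and 1.36 at P10, and 0.601, 1.338 and 1.19 at P28. In all 3 genes both later ages lay below both P4 libraries, and P10 overlapped P28. None of the 3 passed the P10 test in the deposited scaling (limma adjusted p = 0.047, 0.023 and 0.089). All 3 passed when libraries were scaled to reads in peaks (limma adjusted p = 0.00185, 0.00145 and 0.00269). The log2 differences between P10 and P4 were then -2.175, -2.05 and -1.74, against -1.74, -1.75 and -1.16 in the deposited scaling. Syndig1 also passed with median-centred log2 values (limma adjusted p = 0.0065).

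Apob, the apolipoprotein of lipoprotein particles, had the largest difference of the protein-coding promoters, with 3.55 and 7.46 RPKM at P4, 0 and 4.31 at P10, and 0.820, 0.721 and 0.540 at P28. Its P4 libraries differed from each other and P10 overlapped P4. Adamts1, a secreted metalloprotease that cuts matrix proteoglycans, had 8.98 and 8.10 at P4, 2.23 and 4.87 at P10, and 2.59, 2.50 and 1.92 at P28, with P4 above every later library. A second Adamts1 promoter peak, named after its values were seen, was also a member, at 3.98 RPKM at P4, 2.02 at P10 and 2.84 at P28 (means). Slc27a6, of the family of fatty acid transport proteins, had 4.54 and 6.56 at P4, 0 reads in both P10 libraries, and 0.787, 2.03 and 2.07 at P28. Its difference at P10 passed the test (limma adjusted p = 0.00355), and the P10 values were both at the floor of counting. The call was lost without either P4 library and without P28 replicate 2 or 3, with an adjusted p of up to 0.0249.

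Pou3f2 had 4.82 and 5.98 RPKM at P4, 3.19 and 4.65 at P10, and 0.773, 1.59 and 2.14 at P28, a stepwise order in which no libraries of different ages overlapped. Tmem229a showed the same order, with 9.34 and 7.05 at P4, 5.57 and 5.67 at P10, and 2.16, 2.59 and 2.93 at P28. It was the best read of the 10, with 63 P4 reads. Fbxl7, an F-box protein of ubiquitin ligases, did so as well, with 4.81 and 3.95 at P4, 3.58 and 2.61 at P10, and 1.04, 0.773 and 1.49 at P28. The P10 values rested on 3 and 10 reads at Pou3f2, 6 and 14 at Tmem229a and 3 and 5 at Fbxl7. With so few reads the order between P10 and P4 is uncertain. For these 3 promoters the difference between P10 and P4 on the log2(RPKM + 1) scale did not pass the test in the deposited scaling. It was -0.39 ± 0.44 (SE) for Pou3f2, -0.46 ± 0.35 for Tmem229a and -0.40 ± 0.44 for Fbxl7. Scaled to reads in peaks it was -1.35, -1.51 and -1.27 in the same order. In that scaling Pou3f2 and Tmem229a passed (limma adjusted p = 0.0052 and 0.0031) and Fbxl7 did not (limma adjusted p = 0.0122). S100a16, a calcium-binding protein, completed the 10 with 3.84 and 5.55 at P4, 0 and 2.67 at P10, and 1.11, 1.45 and 1.02 at P28.

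**Figure D4:**
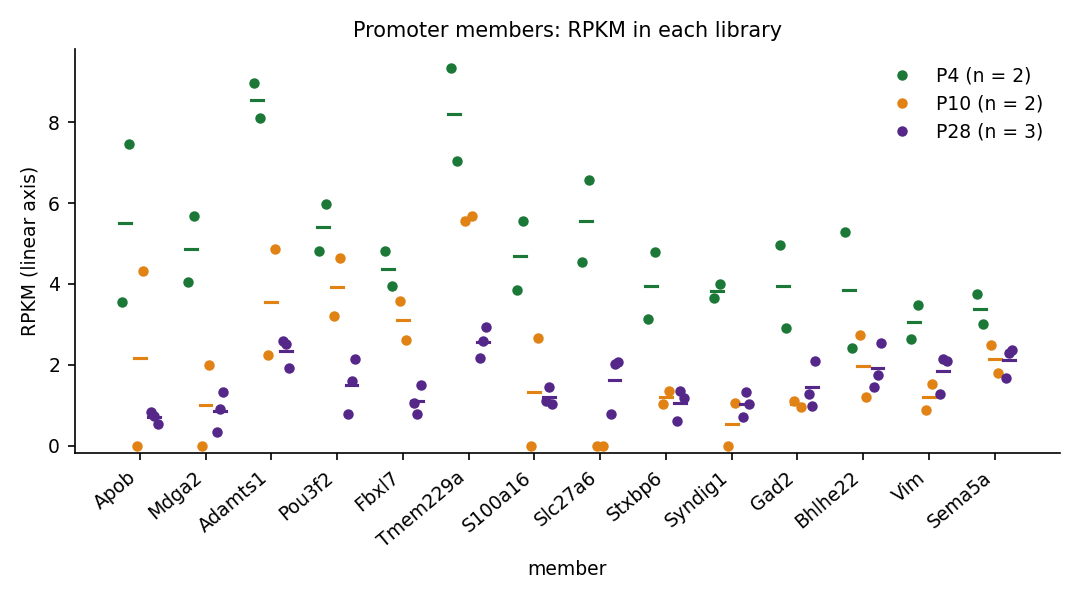
RPKM (linear axis) in each library at the 10 protein-coding promoter members with the largest difference and at 4 promoter members of the gene lists (dots, libraries; bars, means; P4 n = 2, P10 n = 2, P28 n = 3). The means of Pou3f2, Tmem229a and Fbxl7 step down at each age, with few reads at P10. The P10 and P28 dots of Mdga2, Syndig1 and Stxbp6 overlap below both P4 dots.

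Genes of 12 retinal and developmental lists were then looked up. Over all genes with a well-read peak, 29.8% had a member. Of the amacrine and horizontal cell list, 25 genes had a peak and 6 had a well-read peak. Of these 6, 5 had a member, with promoters for Gad2, Bhlhe22 and Pou3f2 and intergenic peaks nearest Tfap2c and Neurod6. This share rests on the few genes that passed the P4 read threshold. The Gad2 promoter had 4.97 and 2.90 RPKM at P4, 1.10 and 0.958 at P10, and 1.28, 0.971 and 2.10 at P28, with P4 above all later libraries. Bhlhe22, a basic helix-loop-helix factor of amacrine and bipolar cells, had 5.29 and 2.41 at P4, 2.74 and 1.20 at P10, and 1.46, 1.74 and 2.53 at P28, and its ages overlapped. The peak nearest Neurod6, a factor of an amacrine subtype named after its values were seen, had 8.12 and 5.02 at P4, 0 and 1.66 at P10, and 0.552, 1.42 and 0.908 at P28.

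In the ganglion cell list 2 of 4 genes with a well-read peak had a member, an intergenic peak nearest Irx5 and an intronic peak of Gap43, a protein of growing axons. Of the Mueller glia and astrocyte list 2 of 3 did. The promoter of Vim, an intermediate filament of progenitors and Mueller glia, had 2.64 and 3.47 RPKM at P4, 0.875 and 1.53 at P10, and 1.27, 2.14 and 2.09 at P28. The axon guidance and adhesion list had 15 members among its 75 well-read peaks, in 11 of 23 genes, with promoter members of Ptprd, Sema5a and Lsamp. Sema5a, a semaphorin, had 3.75 and 3.01 at P4, 2.48 and 1.81 at P10, and 1.68, 2.28 and 2.37 at P28. Both Lsamp promoter peaks had their lowest mean at P10, at 2.74 and 1.93 RPKM, beside 4.79 and 6.48 at P4 and 3.51 and 4.39 at P28. The P10 libraries had 1.35 and 4.14 at the first peak and 0 and 3.85 at the second. By P10 replicate 2 alone the first peak stood above its P28 mean, and the second stayed below. Without the shallow P10 replicate 1 the log2 differences between P10 and P4 were -0.17 and -0.60, against -0.73 and -1.74. Ptprd barely met the rule, at 5.25 at P4, 8.46 at P10 and 5.13 at P28. No gene of the photoreceptor list (9 with a well-read peak), the cell cycle list (3), or the progenitor, bipolar cell and homeobox lists (1 each) had a member, and the vascular list had no well-read peak. The microglia and blood list and the pigment epithelium and lens list had 1 member each, nearest C1qb and Tyrp1, with P28 to P4 ratios of 0.896 and 0.907.

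By family, genes whose symbols begin with Kcn made up 17 of the 864 genes annotated to members (1.97%), 0.408% of the genes annotated to other well-read peaks and 0.343% of those annotated to any peak. Most encode potassium channel subunits, but they include Kcnip1, a channel-interacting protein, and Kcnd3os, an opposite-strand transcript, both named after their values were seen. Their 18 member peaks lay in 8 promoters and 8 introns among other sites, and their P28 to P4 ratios ran from 0.240 to 0.973. Every P28 library lay below both P4 libraries in 9 of the 18, beside 63.2% of all members and 20.7% of all peaks, again from values that chose them. The promoter of Kcnb2, a delayed rectifier channel named after its values were seen, had 6.88 and 5.78 RPKM at P4, 4.37 and 0.954 at P10, and 1.59, 2.94 and 3.45 at P28. Zinc finger genes named Zfp were 2 of the 864 (0.231%), beside 1.04% of the genes of other well-read peaks. Predicted genes named Gm with digits were 32.4%, beside 18.2%, and their share over all peaks was 33.7%. Of the 16 well-read promoters annotated to small nucleolar RNA genes, a class singled out after its values were seen, 10 (62.5%) were members, beside 15% of all well-read promoters and 1 of 7 of those of miRNA genes. In 8 of these every P28 library lay below both P4 libraries, beside the same 63.2% and 20.7% and from the same values, and none of the 10 peaks had more than 11.7 CpG per kilobase.

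Outside promoters the differences reached further. The largest was at an intergenic peak of chromosome 10 nearest Gm25764, with 7.46 and 6.53 RPKM at P4, 2.47 and 7.55 at P10, and 0, 0.294 and 0.118 at P28, and 47.5% of its bases are repeat-masked in the assembly. The Grm3 intron had 5.01 and 6.58 at P4, 0 and 1.24 at P10, and 0, 0.581 and 0.680 at P28. An intergenic peak near Vrk1, a chromatin-associated kinase, had 6.15 and 9.78 at P4, 0 and 1.68 at P10, and 0.747, 0.613 and 0.615 at P28. In Grm3 and Vrk1 both later ages lay below P4. High P4 values also placed these peaks among the largest differences and enter the P10 test, so passing it is a description. In the main fit only Vrk1 passed the P10 test (limma adjusted p = 0.0091, against 0.012 for Grm3). Grm3 passed as well when scaled to reads in peaks and with median-centred log2 values (limma adjusted p = 0.0011 and 0.0030). It also passed with voom (voom adjusted p = 0.0084), and Vrk1 passed in the same settings. The call of Vrk1 was kept in 4 of 13 alternatives, and was lost without any single P4 or P28 library, without P10 replicate 1, with a pseudocount of 0.1, with a filter on low peaks and with the replicate block, at an adjusted p of up to 0.0679. All 3 peaks annotated to Gm11232, on chromosome 4, were well read and were members. The strongest of them had 16.0 and 16.7 RPKM at P4, 0 and 3.27 at P10, and 1.63, 3.31 and 2.68 at P28. The 10 largest differences also included peaks nearest Gm10280, Gm18685, Gm29011 and Gm33228, an intron of Gm26535 and a second Gm11232 peak.

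Of the 10 members with the highest P4 levels, most had their highest mean at P10 in the deposited scaling. The strongest was an intron of Ntm, the adhesion protein neurotrimin, with 27.6 and 33.9 RPKM at P4, 79.0 and 112.4 at P10, and 19.5, 25.2 and 23.6 at P28, from 207 P4 reads. The assembly masks 90.0% of that peak as repeats, and the part of read placement in its level was not tested. Fgfr2 had 13.4 and 19.6 at P4, 62.7 and 88.7 at P10, and 8.43, 12.4 and 11.3 at P28, a difference between P10 and P4 of 2.13 ± 0.32 (SE; limma adjusted p = 0.0015). Tspan9, a tetraspanin, had 16.6 and 16.7 at P4, 44.1 and 65.7 at P10, and 11.1, 13.3 and 17 at P28 (limma adjusted p = 0.0038 for P10 against P4). In all 3 both P10 libraries stood above every other library. The P4 values that named these peaks enter the P10 test, and Fgfr2 was also named for its ratio of P10 to P4. The calls are therefore descriptions. The calls of Fgfr2 and Tspan9 at P10 were lost without either P4 library (adjusted p up to 0.0188 for Fgfr2 over 13 alternatives) and when libraries were scaled to reads in peaks, where the difference was 0.81 for Fgfr2 and 0.32 for Tspan9. That of Tspan9 was also lost without P10 replicate 2 or P28 replicate 2, with an adjusted p of up to 0.153. The exceptions among the 10 strongest were Gm29041 and the Gm11232 peak, which were lower at P10, and Gm49754, with 13.1 and 16.6 at P4, 12.3 and 17.3 at P10, and 7.28, 7.54 and 8.16 at P28. Peaks annotated to 1700027A15Rik, 4930405L22Rik and Gm47887 had both P10 libraries above both P4 libraries in the deposited scaling. Their log2 differences between P10 and P4 were 1.63, 0.91 and 1.11, but 0.31, -0.36 and -0.18 when scaled to reads in peaks. In that scaling the difference was 0.26 at Ntm and -0.98 at 6030407O03Rik, so fewer of the 10 stood above P4 at P10. The intron of 6030407O03Rik had 18.4 and 17.2 RPKM at P4 and 7.82 and 56.9 at P10, so that its higher P10 mean rested on P10 replicate 2 alone.

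At the extremes of P10, the highest ratio to P4 belonged to an intergenic peak nearest Gm12121, with 4.42 and 2.90 RPKM at P4, 33.1 and 41.6 at P10, and 2.75, 4.07 and 3.56 at P28. Endov, an endonuclease of inosine-containing nucleic acid, followed in its 3' UTR with means of 4.11 at P4, 35.1 at P10 and 3.27 at P28, and Diras2, a small GTPase, with 4.04, 24.6 and 2.20. Fgfr2 and Gm37148 completed the 5 highest. At the low end Gm10280, Gm5876 and an intron of Cadps2, which primes dense-core vesicles, had 0 reads in both P10 libraries. Their P4 means were 8.72, 6.77 and 8.15 RPKM and their P28 means 0.614, 1.95 and 1.16. Gm29041 had 19.0 and 13.8 at P4, 0 and 1.14 at P10, and 2.27, 4.34 and 3.24 at P28, and Gm24602 had 9.46 and 9.94, 0 and 0.820, and 0.819, 2.75 and 3.77. A P10 level of 0 here is bounded only by the floor given above, which is higher in narrower peaks.

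Several genes held more than 1 member. Of the 864 genes, 118 had 2 or more members and 24 had 3 or more. Tenm4 led with 7 members among 9 well-read peaks, followed by Apba2, Gm12414, Gm29927, Ptprn2, Shisal1 and Togaram2, with 4 each. A tie of 17 genes at 3 members came next, of which AC119183.1, Adamts12 and Aff3 are the first in alphabetical order. All 7 Tenm4 members had a P10 mean above the P4 mean. The strongest, in an intron, had 14.3 and 13.4 RPKM at P4, 32.5 and 73.3 at P10, and 4.33, 6.36 and 4.66 at P28. The Tenm4 promoter member was nearly level, at 4.45 and 3.43 at P4, 3.66 and 4.26 at P10, and 2.04, 3.78 and 4.38 at P28, and its ages overlapped. The 4 Gm29927 members also had their highest means at P10, from 6.61 to 32.4 RPKM. The 3 Adamts12 members had means of 3.08, 7.22 and 7.26 at P4 and 1.95, 3.84 and 1.23 at P10, lower in each.

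**Figure D5:**
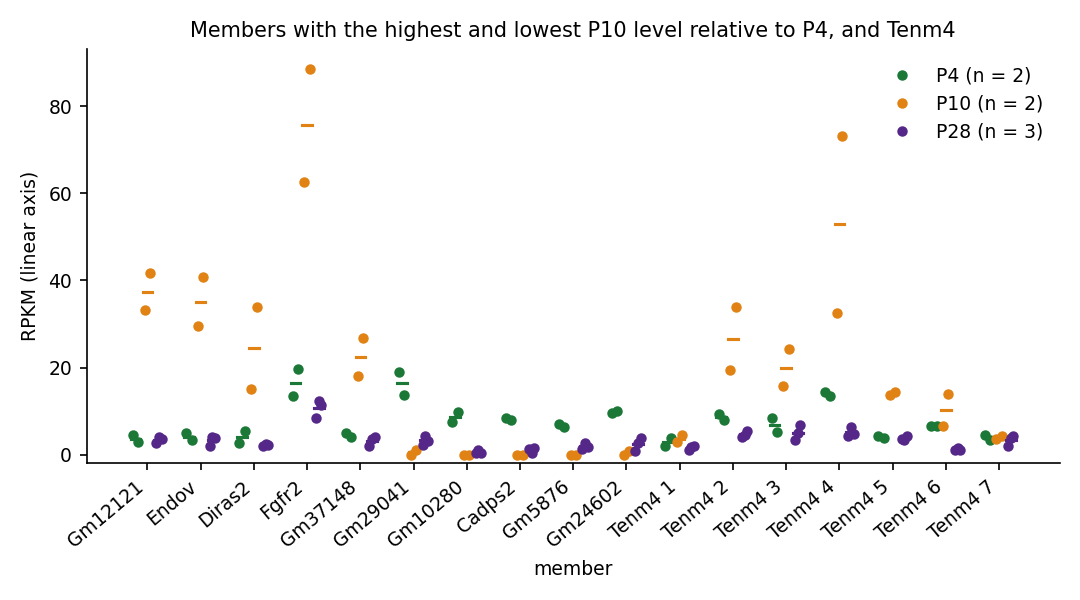
RPKM (linear axis) in each library at the 5 members with the highest and the 5 with the lowest ratio of P10 to P4, and at the 7 Tenm4 members in chromosome order (dots, libraries; bars, means; P4 n = 2, P10 n = 2, P28 n = 3). The P10 dots of Fgfr2 reach 62.7 and 88.7, while those of Gm10280, Cadps2 and Gm5876 lie at 0.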

How the data were processed

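H3K18La was profiled by CUT&Tag in 7 mouse retina libraries. The deposited values are RPKM per peak, which the authors made from peaks kept at a q beyond 1e-06 in at least 2 replicates and normalised with counts in windows of 10000 bases. The submitters' processing notes name MACS, ChIPseeker 1.34.1, edgeR 3.40.2 and GRCm38, and the peak classes are the authors' own, with promoters from -1000 to 500 bases of a start site. The deposited columns of fold changes, p-values and FDR were not used, and 0 columns of per-sample values were left out.

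Reads were recovered from the RPKM steps, and 100% of values came out whole within 0.05 of a read. Members and gene lists were chosen with earlier results of these data known. Ages were compared with the trend method of limma 3.58.1 (R 4.3.3) on log2(RPKM + 1) of all 108253 peaks in all 7 libraries, with Benjamini-Hochberg adjustment and a threshold of 0.01. A fold on this scale understates the change of low peaks. The p-values measure the spread between these libraries. The script was tested on simulated data, where it recovered the direction of planted changes but called none of them at the adjusted threshold when few peaks changed. Sequences and CpG content were read from RefSeq's GRCm38.p6 with Python 3.11.15.

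Regions were named by rule: the 10 protein-coding promoters and the 10 members of any class with the largest difference between P4 and P28, the 10 with the highest P4 level, the 5 highest and 5 lowest in the ratio of P10 to P4, the 10 genes with most members, promoter members of the 12 lists, and the 3 nearest each side of each threshold. The alternatives were other pseudocounts, thresholds and filters, scaling to reads in peaks, a median scaling (libraries divided by their median over peaks read in all libraries for levels and counts of members, and median-centred log2 values for the limma fits), voom on the recovered reads, the replicate number as a block, and leaving out each library. Intervals and floors cover counting error only, since reads without molecular identifiers are not independent molecules.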

Additional observations from a re-analysis of the deposited data

How the results depend on the processing

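The number of members was 2487 when libraries were scaled to reads in peaks and 2239 when each was divided by its median, 120 with a higher read threshold and 5106 with a threshold of 2.6, 421 with P28 below 0.5 of P4, 642 with every P28 library below both P4 libraries, and 918 to 1456 without single libraries. Promoters held 35.7% of the members after scaling to reads in peaks, 16.7% at a threshold of 2.6 and 20.2% with P28 below 0.5 of P4, against 23.9% in the main set. The members with P10 below P4 numbered 939 and 938 under those scalings, and 521 to 737 without single libraries, with no share over all peaks computed beside them. The held-out share was 83.7%, and 65.4%, 57.8%, 78.3%, 63.2% and 56.7% in the other 5 splits.

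The median difference between P28 and P4 was -0.79 and -0.32 with pseudocounts of 0.1 and 5, -1.55 scaled to reads in peaks, -1.45 divided by the median, and -0.70 to -0.50 without single libraries. Between P10 and P4 it was -1.24 and -1.23 under those scalings and -0.58 to -0.0066 without single libraries. Between P28 and P10 it ranged from -0.66 to -0.08. Members called between P28 and P4 numbered 187 at an adjusted p under 0.05, 12 with a pseudocount of 0.1, 832 scaled to reads in peaks, 267 with median-centred log2 values, 269 with voom, and 1 to 173 without single libraries. All of these were lower, a direction the rule fixed, and the shares of all peaks called lower were 9.44%, 1.42%, 18.4%, 9.91%, 11.3%, and 1.80% to 7.02%. Between P10 and P4 they numbered 185, 27, 423 and 118 in the same order, and 3 to 166 without single libraries, beside 35%, 13.8%, 21.6%, 21.5% and 5.05% to 19.4% of all peaks. All but 2 of the 423 were lower at P10. With voom 8.86% of the members were called between P10 and P4, beside 14.6% of all peaks. Of the members 3.35% were lower and 5.51% higher, beside 0.0924% and 14.5% of all peaks. Between P28 and P10 they numbered 167, 16, 20 and 118, then 187 with voom and 0 to 114 without single libraries, beside 13.4%, 1.23%, 0.0998%, 2.17%, 8.26% and 0% to 15.2% of all peaks. The cause of these shifts was not tested.

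The replicate numbers do not pair libraries by animal, since those with the same number came from animals of different ages. Deviations from the age mean correlated from -0.031 to 0.108 for the same number and from -0.108 to 0.046 for different numbers. With 2 libraries at P4 and 2 at P10 these values mirror each other, so they cannot test pairing. With the replicate block, 14 members were called between P28 and P4, 47 between P10 and P4, and 0 between P28 and P10, beside 14.1%, 15.5% and 0% of all peaks.

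Differences between P28 and P4 changed sign at 5 named regions, all near 0. The value at 1700027A15Rik was 0.018 with voom. Without single libraries it ran from -0.15 to 0.14 at 1700027A15Rik, -0.31 to 0.18 at 6030407O03Rik, -0.31 to 0.23 at Ptprd, -0.34 to 0.22 at 4930405L22Rik and -0.29 to 0.18 at Gm12121. Differences between P10 and P4 also changed sign at named regions. Scaled to reads in peaks, the value went from 0.61 to -0.52 at Ptprd and from 0.91 to -0.36 at 4930405L22Rik. It went from 1.11 to -0.18 at Gm47887 and from 0.27 to -0.98 at 6030407O03Rik, where it was -1.09 without P10 replicate 2. Without P10 replicate 1 it went from -0.55 to 0.10 at Gm25764 and from -0.01 to 0.22 at Gm49754. Depth limits P10 most, since 1 read there was worth 1.18 and 0.516 RPKM at the median member width.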
